A study of Mus musculus with 6 samples.

Results

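Macrophages that take up more cholesterol than they can release turn into foam cells, the lipid-laden cells of atherosclerotic plaques. The circRNAs described here come from host genes that handle this cholesterol. They were taken as all entries of the circRNA table whose host gene, given as a symbol or an Ensembl identifier, was Abca1, Abcg1, Acat1, Scarb1, Msr1, Cd36, Lpl, Lrp1 or Soat1. Of the 10023 entries in the table, 33 belonged to 7 of these 9 genes. Abcg1 and Scarb1 had no entry. The 33 entries comprised 28 exonic circRNAs and 5 ciRNAs, which are circles of intron sequence, and held 156 back-spliced reads, 0.417% of the 37393 reads in the table.

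The RNA came from the aortas of male ApoE-/- mice on the C57BL/6 background. The mice lacked apolipoprotein E, which clears lipoproteins from the blood, so the controls carried the same deletion and no wild-type aorta was included. Mice entered the experiment at 6 weeks of age and were given a high-fat diet (HFD) or a normal diet, called chow diet here, for 12 weeks. Each diet had 3 libraries, each called an aorta here, and the study does not state whether each came from a single mouse. RNA was taken from aorta tissue rather than sorted cells, so a level reflects all cells in it, and fewer cells of a type cannot be told apart from less circRNA per cell.

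Cells take up modified lipoproteins through scavenger receptors such as CD36 and the class A receptor encoded by Msr1. Free cholesterol is either esterified for storage in lipid droplets, by the acyltransferase that Soat1 encodes, or exported. ABCA1 passes cholesterol and phospholipids to lipid-poor apolipoprotein A-I, and ABCG1 passes cholesterol to high-density lipoprotein. Cholesterol loading activates the liver X receptors, which are known to turn on transcription of Abca1 and Abcg1. A circRNA arises when the splice donor at the end of an exon is joined to the acceptor of the same or an upstream exon. It shares its exons with the messenger RNA of the gene, and only reads across this back-splice tell it apart.

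Counts were low. The libraries held 4694 to 5621 back-spliced reads on the HFD and 7142 to 7585 on the chow diet. Levels are given as SRPBM, the back-spliced reads divided by the authors' depth of the library and scaled, in which 3 reads in 1 aorta corresponded to 49.8 to 52.0 on the HFD and 40.7 to 43.0 on the chow diet. Only 1 aorta had reads of 22 of the 33 entries (66.7%), and 13 entries rested on a single read. A single aorta held the reads of 74.4% of the entries in the table as a whole. The remaining 11 entries had reads in at least 2 aortas and were tested.

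Abca1 (ENSMUSG00000015243) had more circRNA entries and reads than any other of these genes, with 11 entries and 83 reads. It lies on the minus strand of chromosome 4 (GRCm38, chr4:53030787-53159895), and its transcript ENSMUST00000030010 has 50 exons. All 10 exonic entries began and ended at annotated exon ends. Reads piled up at the 5′ end of the gene. The 6 circles that lay within exons 2 to 7 held 77 of the 83 reads (92.8%). Their back-splices used few sites. The acceptors of exons 2, 3 and 6 and the donors of exons 5 and 7 allow 5 circles, and all 5 were seen. These 5 were also the Abca1 circles found in more than 1 aorta.

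The circle with the most reads, mmu_circ_0011676, joined the donor of exon 5 to the acceptor of exon 3 (chr4:53127597-53133015, 355 nt if all exons between are kept). circRNA1541 shared its acceptor but used the donor of exon 7 (chr4:53107006-53133015, 654 nt), and circRNA1540 shared the exon 7 donor but started at exon 6 (chr4:53107006-53109285, 299 nt). mmu_circ_0011675 ran from exon 2 to exon 7 (chr4:53107006-53144095, 820 nt) and circRNA3814 from exon 2 to exon 5 (chr4:53127597-53144095, 521 nt). Junctions of the first 3 are printed 5′ to 3′ to show which end they share, with the end of the donor exon in lower case and the start of the acceptor exon in capitals:
mmu_circ_0011676: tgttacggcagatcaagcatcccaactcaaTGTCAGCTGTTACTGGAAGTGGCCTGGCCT
circRNA1541: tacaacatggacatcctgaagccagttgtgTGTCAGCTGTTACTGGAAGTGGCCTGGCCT
circRNA1540: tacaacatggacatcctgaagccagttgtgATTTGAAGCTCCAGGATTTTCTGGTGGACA

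**Figure D1:**
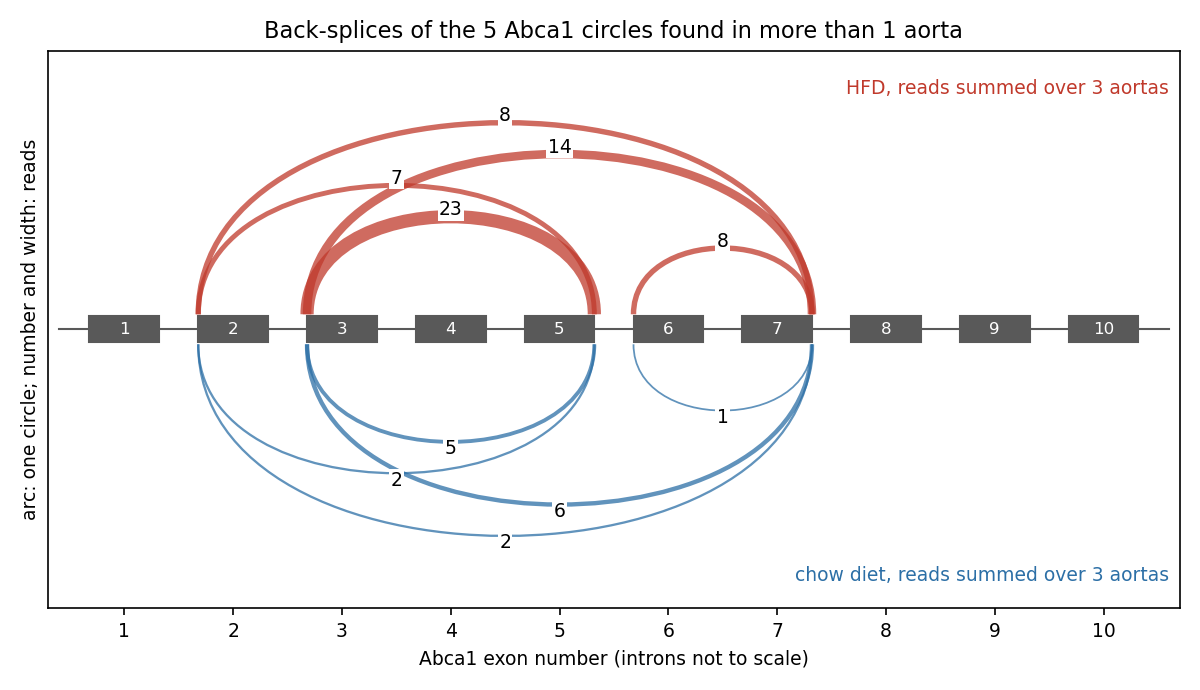
Back-splices of the 5 Abca1 circles found in more than 1 aorta, drawn over exons 1 to 10 (introns not to scale). Each arc is a circle from its acceptor exon to its donor exon, with its reads summed over 3 HFD aortas above the line and over 3 chow diet aortas below; the arc from exon 3 to exon 5 carried 23 reads against 5.

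The exons between these sites carry the beginning of the ABCA1 coding sequence. Exon 2 holds the start codon, so mmu_circ_0011675, circRNA3814 and circRNA6708, a circle of exon 2 alone, contain it. mmu_circ_0011676 lies wholly in coding sequence and covers 5.23% of its 6786 nt, against 9.64% for circRNA1541. The junctions bordered the 4 longest of the 49 introns of the gene. Intron 5, downstream of the exon 5 donor and upstream of exon 6, has 18311 nt, intron 1 has 15580 nt, intron 7 has 11328 nt and intron 2 has 10914 nt, against a median of 1121 nt. Long flanking introns were common among circles of the whole table, whose upstream and downstream introns had medians of 7528 and 6091 nt.

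The study links miR-17-5p to Abca1 through a predicted site in the 3′ untranslated region of the messenger RNA. No exonic Abca1 circle holds that region, so a match in a circle does not bear on that site. The seed of miR-17-5p was searched for in the circles as a description. The mature sequence (RefSeq, GRCm38.p6) is given with the seed, bases 2 to 8, in capitals. Exons 3, 4 and 5, which together make mmu_circ_0011676, follow, with the match to bases 2 to 7, CACTTT, in capitals:
miR-17-5p: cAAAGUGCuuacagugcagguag
Abca1 exon 3: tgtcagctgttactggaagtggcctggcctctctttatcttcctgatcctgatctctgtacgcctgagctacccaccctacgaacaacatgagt
Abca1 exon 4: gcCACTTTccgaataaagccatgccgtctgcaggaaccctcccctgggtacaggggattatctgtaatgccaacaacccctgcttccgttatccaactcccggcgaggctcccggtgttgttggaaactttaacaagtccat
Abca1 exon 5: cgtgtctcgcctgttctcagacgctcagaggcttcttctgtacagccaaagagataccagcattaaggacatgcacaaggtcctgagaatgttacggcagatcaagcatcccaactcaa

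The transcript strand of the circles was read, across the back-splice as well. Exon 4 held 1 match to bases 2 to 7, at position 97 of mmu_circ_0011676, and the 4 circles with exons 3 to 5 therefore held it. circRNA5448 held another. No Abca1 circle held GCACTTT, the match to bases 2 to 8. Of the 2131 exonic circles in the table with a length close to that of mmu_circ_0011676 (0.8 to 1.25 times), 9.995% held CACTTT and 2.63% held GCACTTT. In the lengths of circRNA1541, mmu_circ_0011675 and circRNA3814, the shares with CACTTT were 16.6%, 20.8% and 13.4%. A match is a description of the letters and not a measured binding site.

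Reads of Abca1 circles were higher in HFD aortas than in chow diet aortas. Summed over all 11 entries, they numbered 18, 31 and 17 in HFD-fed mice and 7, 6 and 4 in chow-fed mice. In SRPBM these were 312, 514 and 293 against 94.97, 82.5 and 57.3. All 3 HFD aortas lay above all 3 chow diet aortas. The mean level was 373 ± 123 SRPBM in HFD-fed mice against 78.3 ± 19.2 in chow-fed mice (SD, n = 3 each), a ratio of 4.77 (exact permutation test, two-sided, p = 0.1, the smallest that 3 against 3 allow). In the fit over all host genes, the Abca1 sum rose by a log2 fold change of 2.25 with a standard error of 0.48 (edgeR quasi-likelihood test, Benjamini-Hochberg adjusted p = 0.0036). This fit shares its estimate of the spread among all host genes, so the small p does not rest on the Abca1 values alone.

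Of the 5 genes of the set with enough reads to test, which were Abca1, Cd36, Lpl, Lrp1 and Soat1, only Abca1 met the study's criteria. These are a p below 0.05 before adjustment together with a log2 fold change beyond 1 in either direction. The study applied these criteria to single circRNAs, whereas here they were applied to edgeR tests of host gene sums. Among all 2240 host genes tested, 1.7% met them with a higher sum on the HFD and 2.77% with a lower sum. An adjusted p under 0.05 was reached by 4 host genes, 0.179% of those tested. Abca1 had the second smallest p, after Tulp4 (log2 fold change 1.12) and ahead of Arhgap32 (-1.06) and Itga8 (-1.71). Every HFD aorta lay above every chow diet aorta in 3.71% of host genes. The median log2 fold change of all host genes was -0.17. Leaving out chow diet aorta 2 or HFD aorta 2 moved the adjusted p of Abca1 to 0.38 and 0.11 (edgeR), with log2 fold changes of 2.30 and 2.07, and limma on log2 SRPBM gave an adjusted p of 0.062 with 2.05.

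**Figure D2:**
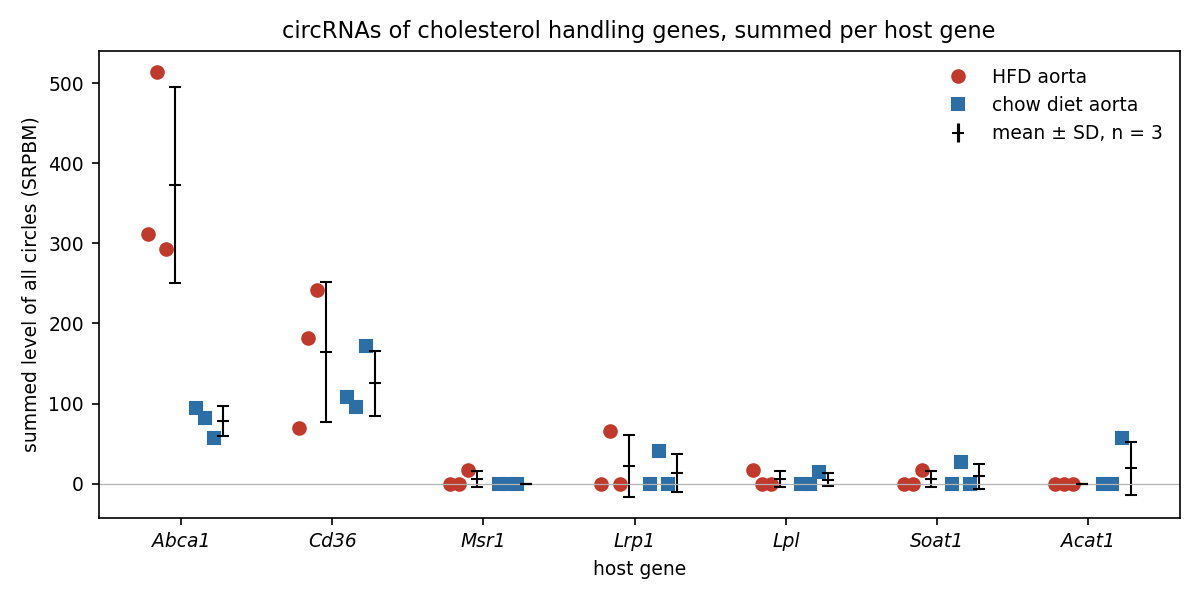
Summed level of all circles of each host gene in SRPBM, with 3 HFD aortas as red circles and 3 chow diet aortas as blue squares, and the mean ± SD beside them. The Abca1 points of the diets are apart (293 to 514 against 57.3 to 94.97), the Cd36 points overlap, and the other genes have no reads in most aortas, with their highest point at 66.3 for Lrp1 in HFD aorta 2.

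**Figure D3:**
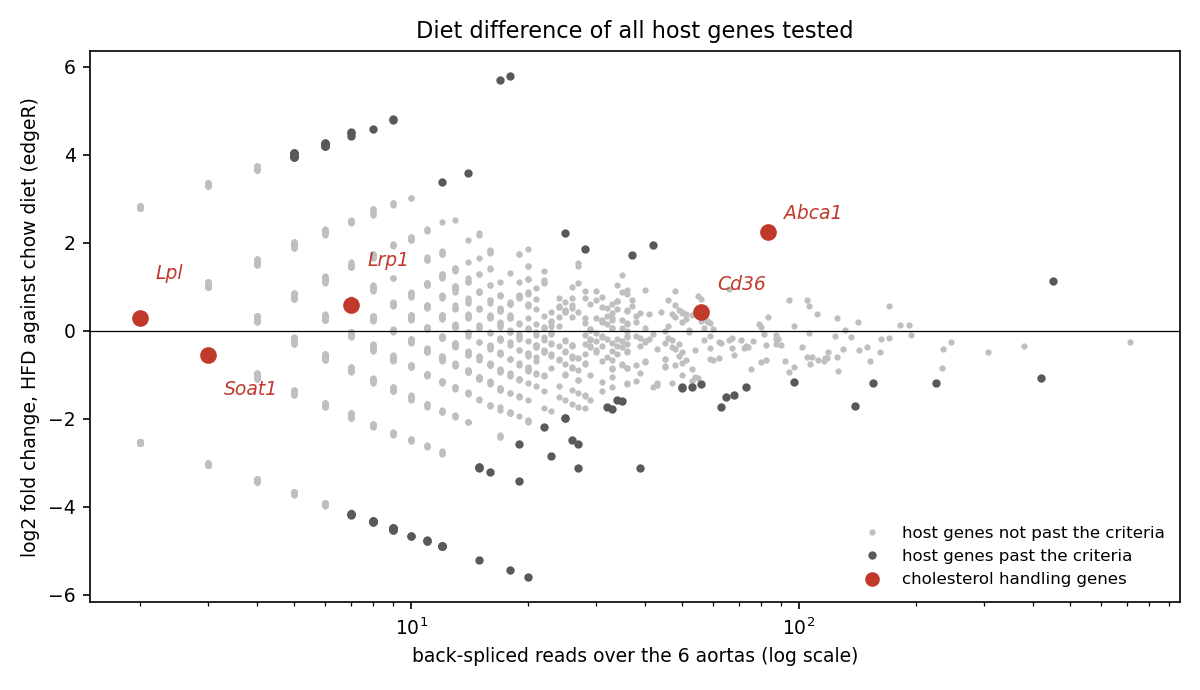
Log2 fold change of the HFD against the chow diet (edgeR) for each of the 2240 host genes tested, against back-spliced reads over the 6 aortas on a log scale, with host genes past the criteria in dark grey and the cholesterol handling genes in red. Abca1 lies at 83 reads and 2.25, Cd36 at 56 reads and 0.43, and the rows of points at the left are genes with few reads.

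As a share of all back-spliced reads in a library, Abca1 circles made up 0.383% (95% Wilson interval 0.243 to 0.605), 0.552% (0.389 to 0.782) and 0.349% (0.218 to 0.558) in HFD-fed mice. In chow-fed mice the shares were 0.0923% (0.0447 to 0.19), 0.084% (0.0385 to 0.183) and 0.0535% (0.0208 to 0.138). No interval of an HFD aorta overlapped one of a chow diet aorta. The intervals cover counting error only. By mean SRPBM, Abca1 was at rank 16 of the 2780 host genes with reads on the HFD and at rank 256 of 3091 on the chow diet. Cd36 was at ranks 63 and 124.

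The 5 recurrent Abca1 circles were then compared one by one. mmu_circ_0011676 had 6, 13 and 4 reads in HFD-fed mice against 4, 0 and 1 in chow-fed mice, or 104, 216 and 68.9 SRPBM against 54.3, 0 and 14.3. Its mean was 130 ± 76.6 SRPBM in HFD-fed mice against 22.9 ± 28.1 in chow-fed mice. The log2 fold change was 2.38 with a standard error of 1.00 (edgeR, adjusted p = 0.58). It met the unadjusted criteria, but no longer did so without HFD aorta 2 (1.82), chow diet aorta 2 (1.82) or chow diet aorta 3 (2.13). It was 1 of 11 tested entries of these genes that met them as higher on the HFD, beside 1.29% of the 2564 entries tested over the whole table. As lower on the HFD, 1 of the 11 met them, beside 2.77% over the table.

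circRNA1541 had 5, 6 and 3 reads in HFD-fed mice against 1, 3 and 2 in chow-fed mice, with means of 79.3 ± 24.7 and 27.8 ± 13.9 SRPBM. Its log2 fold change of 1.47 with a standard error of 1.11 did not pass (edgeR, adjusted p = 0.63), although without chow diet aorta 2 it met the unadjusted criteria (1.81). circRNA1540 had 1, 3 and 4 reads in HFD-fed mice against 1, 0 and 0 in chow-fed mice, with means of 45.3 ± 26.1 and 4.52 ± 7.83 SRPBM (edgeR, adjusted p = 0.58). It did not meet the unadjusted criteria, but did so with limma and without chow diet aorta 1. mmu_circ_0011675 had 2, 3 and 3 reads in HFD-fed mice against 1, 1 and 0 in chow-fed mice, with means of 45.4 ± 9.33 and 9.10 ± 7.89 SRPBM (edgeR, adjusted p = 0.64). For circRNA1540 and mmu_circ_0011675 the means of both diets stand for fewer than 3 reads an aorta, so no fold change is given.

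In SRPBM, each of these 4 circles was higher in every HFD aorta than in any chow diet aorta (exact permutation test, p = 0.1 each). For 3 of them the separation rests on the larger depth by which chow diet counts were divided, since the lowest HFD aorta and the highest chow diet aorta had the same number of reads (4 for mmu_circ_0011676, 3 for circRNA1541 and 1 for circRNA1540). This separation in SRPBM was seen in 2.5% of all entries tested. The 4 circles share their sites and their aortas and are not independent of each other. circRNA3814 overlapped between the diets, with 2, 5 and 0 reads in HFD-fed mice against 0, 2 and 0 in chow-fed mice (39.2 ± 41.6 against 9.16 ± 15.9 SRPBM, exact permutation test, p = 0.4, and edgeR adjusted p = 0.85). HFD aorta 3 and 2 chow diet aortas had none.

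**Figure D4:**
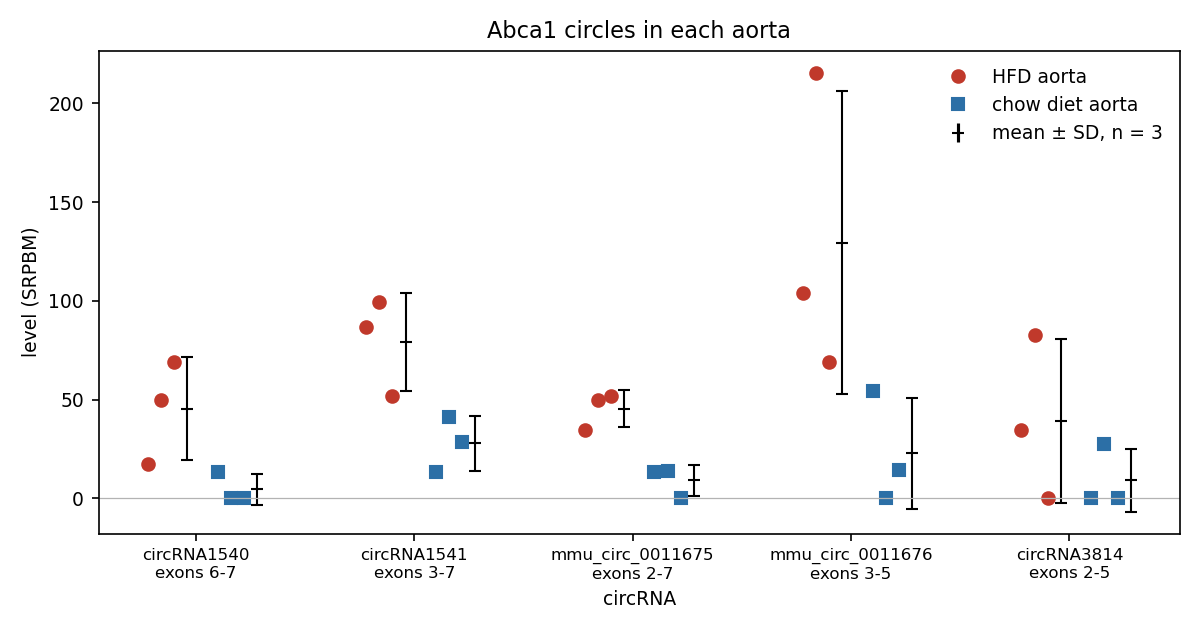
Level of the 5 recurrent Abca1 circles in SRPBM, with 3 HFD aortas as red circles and 3 chow diet aortas as blue squares, and the mean ± SD beside them. The HFD aortas lie above the chow diet aortas for the first 4 circles, and HFD aorta 2 is the highest point of mmu_circ_0011676 at 216 SRPBM.

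The remaining 6 Abca1 entries had reads in a single aorta. circRNA8672, of exons 8 to 34 (chr4:53059257-53095677), had 2 reads in HFD aorta 3. circRNA8673, of exons 21 to 23 (chr4:53074220-53075589), had 1 read in the same aorta. circRNA6707, of exons 6 to 8 (chr4:53095585-53109285), and circRNA6708, of exon 2 (chr4:53143930-53144095), each had 1 read in HFD aorta 1. The intron circle ciRNA740 (chr4:53062603-53065900) had 1 read in HFD aorta 2. circRNA5448, of exons 38 to 46 (chr4:53038157-53046145), was the only one of the 6 seen on the chow diet, with 1 read in aorta 3.

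The share of reads at each site was then set side by side for the diets. The acceptor of exon 3 took 37 of 66 reads on the HFD (56.1%, 95% Wilson interval 44.1 to 67.4) and 11 of 17 on the chow diet (64.7%, 41.3 to 82.7). The donor of exon 5 took 30 reads (45.5%, 34.0 to 57.4) against 7 on the chow diet (41.2%, 21.6 to 63.99). The donor of exon 7 took 30 reads (45.5%, 34.0 to 57.4) and 9 reads (52.9%, 31.0 to 73.8). The acceptor of exon 2 took 16 reads (24.2%, 15.5 to 35.8) and 4 reads (23.5%, 9.56 to 47.3), and that of exon 6 took 9 reads (13.6%, 7.34 to 23.9) and 1 read (5.88%, 1.05 to 26.98). These intervals pool the reads of 3 aortas and cover counting error only, not the spread between mice, and no test of a shift between sites was made. By aorta, the exon 3 acceptor had 11, 19 and 7 reads in HFD-fed mice against 5, 3 and 3 in chow-fed mice. The exon 7 donor had 8, 12 and 10 reads against 3, 4 and 2. The exon 6 acceptor had 2, 3 and 4 reads against 1, 0 and 0. These 3 sites did not overlap between the diets, but they sum the same Abca1 reads as the circles above and are not further separations. The share of sites in the whole table that separate this way was not counted. The exon 5 donor had 8, 18 and 4 reads against 4, 2 and 1, and the exon 2 acceptor had 5, 8 and 3 against 1, 3 and 0, so that for each the lowest HFD aorta and the highest chow diet aorta had equal reads.

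**Figure D5:**
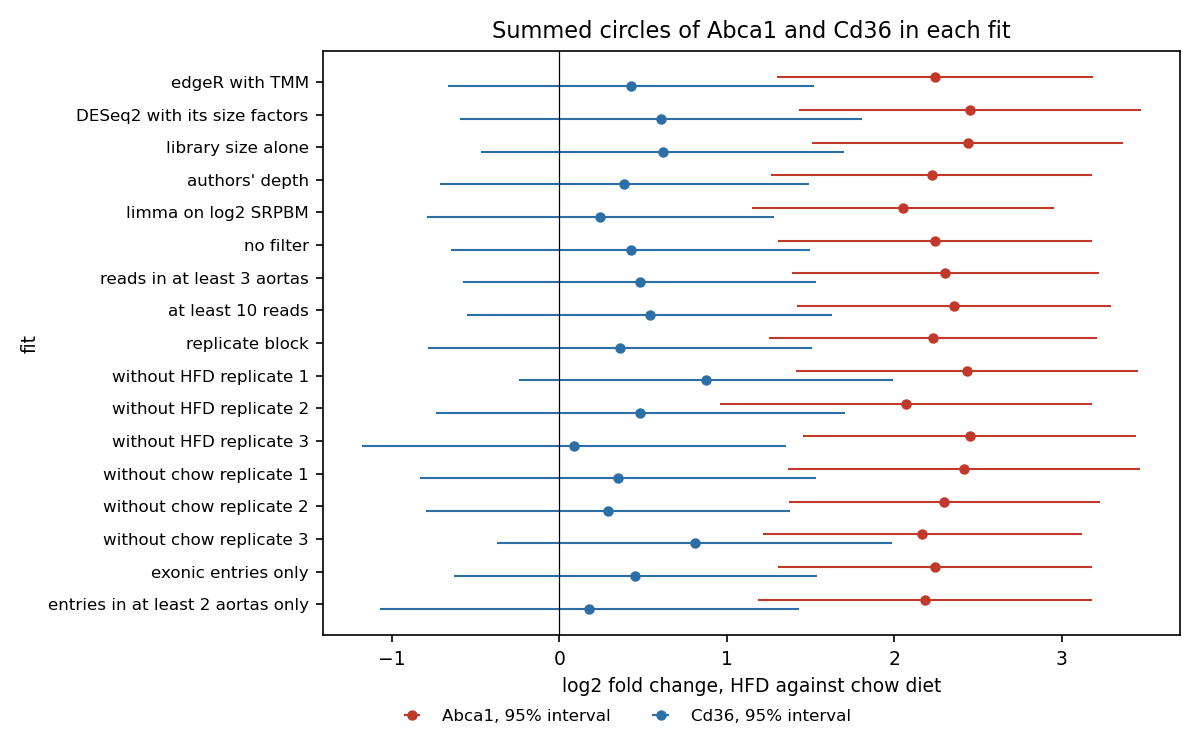
Log2 fold change of the summed Abca1 circles (red) and Cd36 circles (blue), HFD against chow diet, in the edgeR fit with TMM at the top and in each of 16 alternatives, with bars of 95% intervals from the standard errors. Abca1 lies between 2.05 and 2.45 in the alternatives and Cd36 between 0.09 and 0.88, with bars that cross 0.

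Cd36 (ENSMUSG00000002944), the scavenger receptor gene for oxidized low-density lipoprotein and fatty acids, was the other gene of the set with many reads. It lies on the minus strand of chromosome 5 and had 10 entries and 56 reads. Summed over its entries, there were 4, 11 and 14 reads in HFD-fed mice against 8, 7 and 12 in chow-fed mice. In SRPBM these were 69.3, 182 and 241 against 109, 96.2 and 172. The diets overlapped, since HFD aorta 1 was the lowest of the 6 and HFD aorta 3 the highest. The means were 164 ± 87.4 and 126 ± 40.6 SRPBM (SD, n = 3 each, two-sided exact permutation test, p = 0.6). The log2 fold change was 0.43 with a 95% interval from -0.67 to 1.52 (edgeR, adjusted p = 0.95), so a rise of the size seen for Abca1 lay outside this interval while smaller changes in either direction lay within it.

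The 10 Cd36 entries stand for 8 circles, because 2 circles were each listed under a pair of entries whose starts are 1 base apart. circRNA1373 and circRNA4617 both join exon 8 to exon 4 (chr5:17811181-17820600 and chr5:17811182-17820600). circRNA1373 had 3, 0 and 6 reads on the chow diet and none on the HFD, and met the unadjusted criteria as lower on the HFD (edgeR, adjusted p = 0.58). Its mean of 42.2 SRPBM on the chow diet is below 3 reads an aorta on the HFD, so no fold change is given. circRNA4617 had the opposite pattern, with 7 reads in HFD aorta 3 and 2 in chow diet aorta 2. Summed, the circle had 0, 0 and 7 reads in HFD-fed mice against 3, 2 and 6 in chow-fed mice, and the log2 fold change was -0.22 with a standard error of 1.03 (edgeR, adjusted p = 0.95). The call on circRNA1373 thus ended when the 2 entries were joined.

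The second pair, circRNA5347 and circRNA2791, joins exon 11 to exon 9 (chr5:17795579-17798298 and chr5:17795580-17798298). circRNA5347 had 1, 0 and 0 reads in HFD-fed mice against 0, 0 and 4 in chow-fed mice. circRNA2791 had 0, 6 and 0 in HFD-fed mice against 3, 3 and 0 in chow-fed mice. Summed, the circle had 1, 6 and 0 reads against 3, 3 and 4, with a log2 fold change of -0.18 and a standard error of 1.07 (edgeR, adjusted p = 0.95). In no aorta did both entries of a pair have reads. The same held in most of the table, where 471 pairs of exonic entries lay 1 base apart, and both had reads in 9 of the 1657 cases (0.543%) in which an aorta had reads of a pair. The junctions of both Cd36 circles are printed 5′ to 3′ since they hold most of the reads of this gene, with the start of the acceptor exon in capitals:
Cd36 exon 8 to exon 4 (circRNA1373): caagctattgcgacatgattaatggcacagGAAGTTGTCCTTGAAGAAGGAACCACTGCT
Cd36 exon 11 to exon 9 (circRNA5347): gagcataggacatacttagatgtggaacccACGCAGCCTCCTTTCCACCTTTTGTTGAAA

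The other Cd36 entries were sparse. circRNA7649, of exons 6 to 11 (chr5:17795579-17814292), had 3 reads in HFD aorta 2 and 1 in HFD aorta 3 (edgeR, adjusted p = 0.58). circRNA2792, of exons 5 to 8 (chr5:17811182-17814820), had 3 reads in HFD aorta 1 and 2 in chow diet aorta 1 (edgeR, adjusted p = 0.95). 4 entries had reads in a single aorta. They were circRNA9041 with 6 reads in HFD aorta 3, circRNA8046 with 2 in HFD aorta 2, circRNA5346 with 2 in chow diet aorta 3 and circRNA3697 with 2 in chow diet aorta 2. Donors were again few. The donor of exon 8 took 31 of the 56 reads (55.4%) and that of exon 11 took 21 (37.5%), next to introns of 12882 and 7253 nt in a gene whose introns had a median of 1792 nt. By aorta, the exon 8 donor had 3, 0 and 13 reads in HFD-fed mice against 5, 4 and 6 in chow-fed mice, and the exon 11 donor had 1, 9 and 1 against 3, 3 and 4. HFD aorta 2 had no reads of the exon 8 donor, and the other 5 aortas had reads of both.

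Of the other receptors, Msr1, the class A scavenger receptor gene, had a single entry, circRNA8961 (exons 2 to 3, chr8:39631281-39632825), with 1 read in HFD aorta 3. Lrp1 encodes a large endocytic receptor for lipoprotein remnants and had 5 entries on chromosome 10. Their reads came from 1 aorta of each diet, with 4 reads in HFD aorta 2 and 3 in chow diet aorta 2. Lrp1 entries included circRNA7346, which spans exons 11 to 63 (8547 nt if all are kept) and had 1 read. circRNA4542 lay on the strand opposite to the gene (chr10:127573353-127574008) and its ends were not exon ends.

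Lipoprotein lipase, encoded by Lpl, releases fatty acids from circulating triglycerides. It had 2 ciRNAs that start at the same base (chr8:68904568-68904787 and chr8:68904568-68906798), with 1 read in HFD aorta 1 and 1 in chow diet aorta 3. Soat1, the gene of the cholesterol-esterifying enzyme of macrophages, had circRNA8875 (exons 4 to 10, chr1:156439288-156446692) with 1 read in HFD aorta 3 and ciRNA315 with 2 reads in chow diet aorta 2. The symbol Acat1 names mitochondrial acetyl-CoA acetyltransferase, although ACAT is also used for the enzyme that Soat1 encodes. Acat1 had 2 catalogued circles, mmu_circ_0015670 (exons 4 to 8, chr9:53589178-53594789) with 3 reads and mmu_circ_0015672 (exons 4 to 5, chr9:53594406-53594789) with 1, all in chow diet aorta 3. Diet differences of these genes could not be measured at this depth. Lrp1, Lpl and Soat1 had an adjusted p of 0.95 each (edgeR), and Msr1 and Acat1, each with reads in 1 aorta, were not tested.

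A wider list of 68 genes of cholesterol handling, which includes the 9, was read for context. Of these, 35 had a circRNA entry and 22 host gene sums could be tested. Abca1 alone met the criteria as higher, beside 1.7% of all host genes tested, and Sorl1 alone as lower, beside 2.77%. With 1 gene of 22 in each direction, these counts say little against that background. The median log2 fold change of the 22 was -0.46, with 8 above 0 and 14 below, against -0.17 for all host genes. By role, 5 uptake genes were tested, and Sorl1 was the one that met the criteria. Among 3 genes of esterification and hydrolysis, 6 of intracellular transport and 7 of regulation, none met them. Abca1 was the only efflux gene tested, since the reads of Pltp came from 1 aorta and the other 7 efflux genes on the list had no entry.

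Sorl1, a sorting receptor that binds lipoproteins, had no reads in HFD-fed mice against 2, 6 and 4 in chow-fed mice, which is at least 1.09-fold lower when 3 reads are set as the floor in each HFD aorta (edgeR, adjusted p = 0.67). Lrp6, a receptor of the low-density lipoprotein receptor family, had the most reads on the list after Abca1 and Cd36, with 3, 3 and 5 in HFD-fed mice against 8, 13 and 3 in chow-fed mice (log2 fold change -0.79, edgeR, adjusted p = 0.91). Its diets overlapped.

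Circles of cell type markers were summed in the same way, since cell composition could move with the diet. Of 10 smooth muscle markers, 7 had an entry, and their sum was 155 to 243 SRPBM on the HFD and 261 to 444 on the chow diet, without overlap (exact permutation test, p = 0.1). Most of these reads came from Myocd, with 11, 9 and 6 reads in HFD-fed mice against 17, 16 and 21 in chow-fed mice. Lmod1 (0, 0 and 1 reads) and Cald1 (0, 1 and 1 reads) went the other way, with reads in HFD-fed mice only. The share of host genes that were lower in every HFD aorta was not counted for comparison. The contractile genes Tagln, Cnn1 and Des had no entry. Of 12 macrophage and leukocyte markers, 6 had an entry, with 139 to 182 SRPBM on the HFD and 82.5 to 176 on the chow diet, which overlapped (exact permutation test, p = 0.3). Adgre1 gave most of these reads (5, 7 and 8 against 12, 2 and 5), while Cd68, Itgax, Cd14, Lgals3, Fcgr1 and C3ar1 had no entry.

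Endothelial markers (4 of 7 with an entry) had 66.3 to 138 SRPBM on the HFD and 27.5 to 71.6 on the chow diet. Fibroblast markers (2 of 6) had 0 to 68.9 against 0 to 14.3, adipocyte markers (2 of 8) had 0 to 17.3 against 0, and skeletal muscle markers (2 of 7) had 0 to 155 against 0 to 54.3, with the value of 155 from 9 reads in HFD aorta 3. The part of cell composition in the Abca1 difference was not tested. Linear Abca1 RNA of these aortas was not analysed here, so its part was not tested either.

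Among the 396 host genes with at least 20 reads, those whose SRPBM sums followed Abca1 most closely over the 6 aortas were Vapa (Pearson r = 0.97), Mbtd1 (0.94), Zeb1 (0.93), Ptpn4 (0.92) and Tulp4 (0.89). The 6 points fall into the 2 diets and share their libraries, so these values describe an order and no p is given. Vapa, an anchor of the endoplasmic reticulum membrane for lipid transfer proteins, had 6, 9 and 6 reads in HFD-fed mice against 6, 4 and 4 in chow-fed mice. Cd36 had an r of 0.31 with Abca1.

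The qRT-PCR primers that the study used for 6 of these genes were located in the exons of their transcripts. The Abca1 product of 121 nt lies in exons 25 to 26, which are contained in circRNA8672 alone, with 2 of the 83 Abca1 reads (2.41%). The Cd36 product of 118 nt in exons 9 to 10 is contained in 5 entries with 25 of the 56 Cd36 reads (44.6%). The Msr1 product of 114 nt lies in exons 2 to 3, the exons of circRNA8961, and the Acat1 product of 132 nt in exons 7 to 8 lies within mmu_circ_0015670. The Abcg1 product of 139 nt in exons 9 to 10 and the Lpl product of 113 nt in exons 4 to 5 were within no circle of the table.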

How the data were processed

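Aorta RNA of ApoE-/- mice was sequenced for circRNA in 6 libraries, 3 of each diet. The labels' extraction protocol names RNase R, which digests linear RNA, and the study's sequencing methods name depletion of ribosomal RNA. The authors trimmed reads with Cutadapt, searched the reads that did not map for back-splices (TopHat-Fusion) and called circRNAs by CIRCexplorer and CIRI; their versions, the genome build and the merging of the callers are not given in the sources used here. The deposited counts are numbers of back-spliced reads per entry and aorta. The deposited signal, SRPBM, is the count divided by a depth for each aorta and scaled by the authors. This depth was recovered from the ratio of count to SRPBM up to a constant, and the deepest library had 1.28 times the depth of the shallowest. The 6 recovered values share the factor 150, so they are not read as numbers of reads. Columns of the authors' own fold changes, p-values and q-values were not used. Of 8992 exonic entries, 7909 start at an exon start of GENCODE vM21 and 858 start 1 base inside, all of these named by an Ensembl identifier, so coordinates are given for GRCm38. All 1224 entries named by Ensembl identifiers matched a symbol.

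Counts were fitted over the whole table with edgeR 4.0.16 (glmQLFit and glmQLFTest with TMM, R 4.3.3), for the 2564 entries and the 2240 host gene sums found in at least 2 aortas, HFD against chow diet without a replicate block. Entries without a host gene (1.23% to 3.43% of reads) were left out of the host gene fit. Adjusted p-values are Benjamini-Hochberg values over all features tested. For single values a two-sided exact permutation test was used (scipy 1.17.1). Between libraries of a diet, the chi-square divided by its degrees of freedom was 2.50 to 2.76, more than sampling alone gives. Each library is labelled as a separate sample. The edgeR p-values rest on a spread between samples that was estimated over all features together, not on that of a single gene. The exact permutation test uses the values of the feature alone. The replicate numbers do not pair the samples. The alternatives were DESeq2 1.42.0, library size alone, the authors' depth, limma 3.58.1 on log2 SRPBM with a pseudocount of 13.6 (the lowest value above 0), the filter dropped or raised to 3 aortas or 10 reads, the replicate block, each aorta left out in turn, entries 1 base apart summed, and host gene sums of exonic or recurrent entries. Exon structure, circle lengths and primer positions came from GENCODE vM21 transcripts, on the assumption that all exons between the ends are kept.

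Every Abca1 entry is named, and so is every entry of the other genes with reads in at least 2 aortas; single-aorta entries with values were named beyond this rule. The 9 genes, the wider list and the markers were chosen with earlier results of these data known. Fits were also run on simulated counts, whose outcome is not given here.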

Additional observations from a re-analysis of the deposited data

How the results depend on the processing

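The summed Abca1 circles met the criteria in all 16 alternatives, with log2 fold changes of 2.05 to 2.45, and had an adjusted p under 0.05 in 13 of them, limma (0.062) being the exception beside the removal of HFD aorta 2 or chow diet aorta 2. The ratio of means was 3.87 to 5.59 over alternatives chosen after seeing the data. mmu_circ_0011676 ranged from 1.82 to 3.90 as aortas were left out. Cd36 met the criteria in none of 16 alternatives.

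Counts over the table moved more. The 104 entries past the criteria became 23 with DESeq2, 49 with at least 10 reads and 30 with the replicate block, and 57 to 117 as aortas were left out. The 100 host genes became 34, 49 and 41 in the same settings, 56 with entries in at least 2 aortas only, and 49 to 118 as aortas were left out. The cause was not tested; the filter on 10 reads tests fewer features. Lower levels on the HFD made up 68.3% of entries called, but 47.8% with DESeq2 and 51.8% with library size alone, and 62.0% of host genes called, but 47.2% with library size alone. The median log2 fold change of host genes was -0.17 with TMM, 0.01 with DESeq2 and 0.02 with library size alone. Same-numbered aortas did not deviate together (correlations of -0.14, -0.14 and -0.03), and with the replicate block Abca1 had a log2 fold change of 2.23 (adjusted p = 0.018). With 156 reads over 33 entries, depth limits single circles, and no difference was measurable for Msr1, Lrp1, Lpl, Soat1 and Acat1.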
